A study of Homo sapiens with 6 samples.

Results

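The libraries described here are the 3 biological replicates of HEK293T cells that carried RfxCas13d with a non-targeting crRNA, 3 of the 6 libraries of the study. They were chosen by their label alone. RfxCas13d is an RNA-guided ribonuclease that its crRNA directs to complementary RNA, and all libraries of the study share it, so these are cells with the effector and a guide without a target, not untreated cells. HEK293T is 1 established line, derived from human embryonic kidney and carrying the SV40 large T antigen, and it speaks for no other kidney cell. The other libraries, with a crRNA directed at mCherry, were not compared with them.

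RNA was enriched for poly(A) tails, primed at random and marked for strand with dUTP, so longer transcripts give more reads per molecule. Levels are given as CPM, the raw count of a gene over the total of its library scaled to 1e+06 counts. Levels of different genes are set against each other per kilobase of the longest annotated transcript. Thresholds, classes and rankings by reads use CPM without length unless stated, so they favour long transcripts. The libraries held 21321850, 25906275 and 24477525 counts in replicates 1 to 3, in 57820 genes (rows of the table). A symbol was matched for 39538 of these, and they held 97.4%, 97.0% and 96.7% of the counts. At these depths 3 counts, the upper limit that a count of 0 allows, correspond to 0.141, 0.116 and 0.123 CPM per library and to 0.0418 CPM over all 3, for counting error only.

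Replicate 1 stood somewhat apart. Over the 12250 genes with a mean of at least 5 CPM, with or without a symbol, the Pearson correlation of log2(CPM + 1) was taken for each pair. It was 0.993 between replicates 2 and 3, against 0.987 for replicates 1 and 2 and 0.979 for replicates 1 and 3. This is a description across genes of the same libraries. The count of genes that differ at least 1.5-fold between libraries is also given without replicate 1. Coefficients of variation, and the GC content and length of genes that differ, are given with all 3 libraries only.

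A cultured line keeps part of the gene programme of the tissue it came from and loses much of the rest. Its baseline transcriptome is usually read by which lineage regulators, receptors, sensors and isozymes its mRNA holds, since these set what the line can model. HEK293T in particular is a standard host for receptor, channel and virus work and has been described as sharing traits with neuronal and adrenal cells.

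In all, 15630 genes (27.0%) reached 1 CPM in every library and 25090 had 0 counts in all 3. Among the 18911 named protein-coding genes, 12434 (65.8%) reached 1 CPM, 9838 reached 10 CPM, 2184 reached 100 CPM and 25 reached 1000 CPM, while 2859 (15.1%) had 0 counts. Their median was 13.8 CPM, and they held 91.4% ± 0.337 of the counts (SD, n = 3). Of 5125 long non-coding genes 906 (17.7%) reached 1 CPM, and of 9867 pseudogenes 761 did so. The histogram of levels by gene type shows a single peak of protein-coding genes above 1 CPM with a long flat shoulder below it, and no such peak for the other types.

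**Figure D1:**
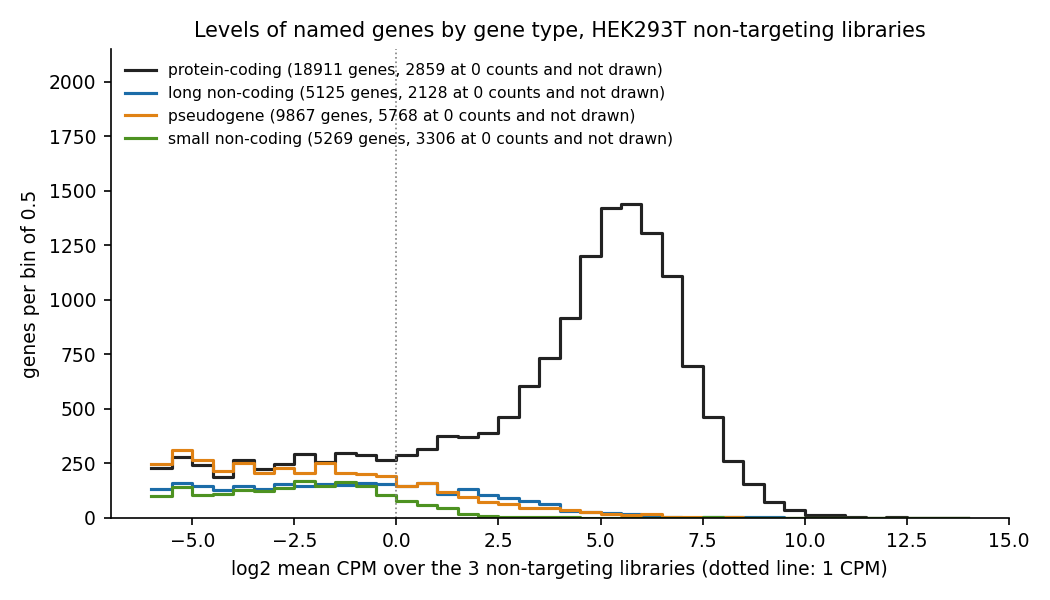
Number of named genes per bin of log2 mean CPM over the 3 non-targeting libraries, for protein-coding, long non-coding, pseudogene and small non-coding genes. Genes with 0 counts, 2859 of the 18911 protein-coding ones, are not drawn. The dotted line marks 1 CPM, and most protein-coding genes lie to its right.

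The named RNAs that took the most reads were a mixed group. XIST, the long non-coding RNA that coats the inactive X chromosome, took 19653, 15883 and 13609 CPM in replicates 1 to 3. The row of 7SK, the small nuclear RNA that holds the elongation factor P-TEFb inactive, took 5159, 11458 and 13654 CPM. XIST was highest in replicate 1 and 7SK was lowest there. EEF1A1 and EEF2, the elongation factors that bring aminoacyl-tRNA to the ribosome and move it along the mRNA, took 6450 ± 361 and 4829 ± 840 CPM (SD, n = 3). MT-CO1, a cytochrome c oxidase subunit encoded in the mitochondrial genome, took 5785 ± 484 CPM, and the nuclear long non-coding RNA MALAT1 took 4296 ± 864 CPM.

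Of the 30 named genes with the most reads, many encode ribosomal proteins, among them RPS2, RPL4, RPL3, RPL15, RPS4X, RPLP0, RPSA, RPS3, RPL7A and RPS6. GAPDH, ENO1, ACTG1, ACTB and TUBA1B, of glycolysis and the cytoskeleton, were there too. So were HUWE1, a very large ubiquitin ligase, and PRKDC, the catalytic subunit of DNA-dependent protein kinase, both of which owed their 1623 and 1594 CPM in part to length. Per kilobase they came to 109.7 and 118.0 CPM, against 1072 for GAPDH and 3752 for MT-CO1. 7SK led per kilobase at 30484 CPM, but 99.1% of its bases are shared with another annotated gene on the same strand. RNU6-1, MIR3648-2 and the pseudogenes RPS28P7 and RPS2P46 were also among the 10 highest per kilobase, and all of these have near-identical copies, so their rows are uncertain.

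The reads were spread over many genes. The 100 most abundant took 14.1%, 15.8% and 16.5% of the counts in replicates 1 to 3, and 1529, 1432 and 1361 genes held 50% of them. Replicate 1 had the flattest distribution and replicate 3 the steepest. The 13 mitochondrially encoded mRNAs together held 0.867% ± 0.0825 of the counts (SD, n = 3).

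Transcription factors of kidney development had reads about as often as other protein-coding genes. Of 13 matched developmental factors 9 reached 1 CPM in every library (69.2%), near the 65.8% of all named protein-coding genes. SALL1, needed for outgrowth of the ureteric bud, was at 56.2, 58.2 and 56.4 CPM in replicates 1 to 3. SIX2, which keeps nephron progenitors undifferentiated, was at 22.9 ± 3.75 CPM, PAX2 at 9.70 ± 1.13 CPM and WT1 at 8.67 ± 0.905 CPM. SALL1 differed little between replicates, while SIX2 was lowest in replicate 1, at 18.6 CPM against 25.6 and 24.6 CPM. PAX8, which works with PAX2 in early nephron formation, had 1 count in replicate 1 and 0 in the others. OSR1 and HNF4A were both under 0.3 CPM in every library.

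Products of the finished tubule did so less often: of 20 tubule genes 5 (25.0%) reached 1 CPM and 7 had 0 counts in all 3 libraries. LRP2 encodes megalin, the endocytic receptor of the proximal tubule, and was at 92.3, 91.1 and 88.3 CPM. Its transcript is very long, and per kilobase it came to 5.73 CPM, against 2.97 CPM for ATP6V1B1, a proton pump subunit of the same list. The value of ATP6V1B1 is uncertain, since 62.4% of its exonic bases are shared with another gene on the same strand. CUBN, the partner of LRP2 in protein uptake, was at 2.30 ± 0.406 CPM. UMOD, which encodes uromodulin of the thick ascending limb, AQP2, the vasopressin-controlled water channel, SLC12A1, the target of loop diuretics, the organic anion transporters SLC22A6 and SLC22A8, and AVPR2 had 0 counts. Among 7 podocyte genes PODXL was at 80.8 ± 2.97 CPM and SYNPO at 5.79 ± 1.33 CPM, while the slit diaphragm gene NPHS1 was at 0.223 CPM on average.

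Adrenal markers were near 0 and neuronal ones were mixed. None of 10 adrenal cortex genes reached 1 CPM in every library, and NR5A1, the master regulator of steroid-producing cells, came nearest at 0.985, 0.811 and 0.940 CPM. Of 11 chromaffin and sympathetic genes 2 (18.2%) did: GATA2 at 27.8 ± 0.679 CPM and HAND2 at 2.79 ± 0.821 CPM. TH, the first enzyme of catecholamine synthesis, had 1 count in all, and DBH had 0. Of 21 neuronal genes 9 (42.9%) reached 1 CPM. This share, like those of the adrenal and chromaffin lists, lay below the 65.8% of all named protein-coding genes. UCHL1, an abundant neuronal deubiquitinase, was at 108, 130 and 142 CPM, MAPT (tau) at 36.7 ± 1.92 CPM, NCAM1 at 29.8 ± 1.99 CPM and the synaptic vesicle gene SYP at 21.9 ± 0.985 CPM. STMN2 and ELAVL4, by contrast, were at 0.0272 CPM and 0 counts. TUBB3 was at 0.791 CPM, but 35.8% of its exonic bases are shared with another gene on the same strand, which can take its reads.

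Epithelial and mesenchymal genes stood side by side. VIM, the intermediate filament of mesenchymal cells, was at 321, 381 and 395 CPM, the lowest value being that of replicate 1. CDH2 (N-cadherin) was at 118, 116 and 108 CPM and CDH1 (E-cadherin) at 4.27, 2.59 and 2.98 CPM, and per kilobase they were at 26.3 and 0.671 CPM. The transcription factors ZEB2, ZEB1, SNAI2 and TWIST1 were at 38.7, 30.4, 13.7 and 8.41 CPM on average. The keratins KRT18 and KRT8 were at 26.6 ± 5.68 and 20.7 ± 3.08 CPM, while KRT19, KRT7, KRT5 and KRT14 had 0 counts. COL1A1, the alpha 1 chain of type I collagen, was at 15.8, 12.7 and 17.3 CPM. COL1A2, whose product joins it in the same trimer, had 0 counts in all 3 libraries, as did CDH11, THY1 and DCN. In sum 10 of 18 mesenchymal (55.6%) and 7 of 16 epithelial genes (43.8%) reached 1 CPM, both below the 65.8% of protein-coding genes.

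Pluripotency genes split in the same way. LIN28B, which blocks maturation of let-7, was at 112, 100.1 and 84.8 CPM, and DNMT3B, a de novo DNA methyltransferase, at 73.7, 68.2 and 70.4 CPM. LIN28A, the close relative of LIN28B, had 0 counts, and so had DPPA4, ZFP42 and TDGF1. POU5F1 and NANOG were at 0.0313 and 0.0787 CPM, and SOX2 at 5.31 ± 1.01 CPM. Markers of endothelium, blood, liver and muscle gave 1 gene each at 1 CPM or more, among them FLT1 (23.2 CPM) for endothelium, TF (1.65 CPM) for liver and MYH3 (8.89 CPM) for muscle. PTPRC, HBB, CDH5, TTR and MYF5 were among the members with 0 counts. Others had counts without reaching 1 CPM in every library: 3 of 5 endothelial, 5 of 10 blood, 4 of 9 liver and 6 of 8 muscle genes. The share at 1 CPM or more lay below the 65.8% of all named protein-coding genes in each of these lists. Of 350 olfactory receptor genes, taken as a reference for genes with no known role in these cells, none reached 1 CPM in every library and 315 had 0 counts, and all of them together had 235 counts.

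**Figure D2:**
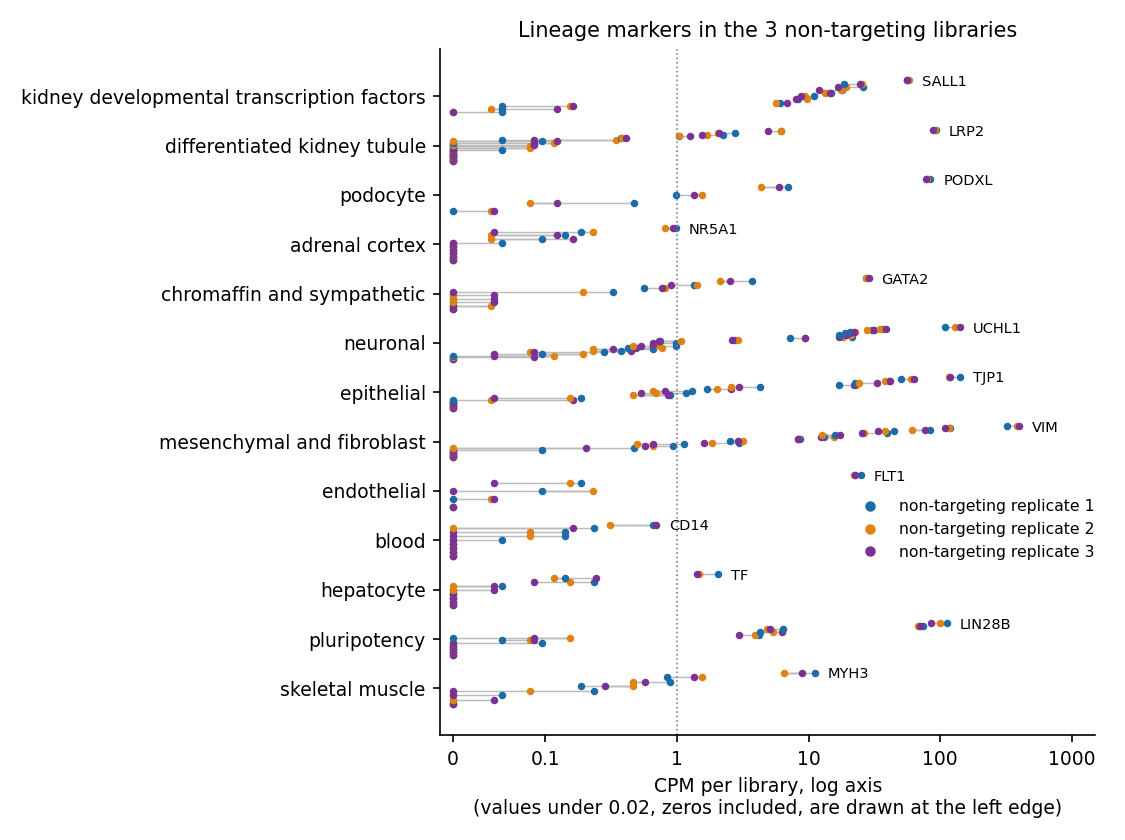
CPM of lineage markers in each non-targeting library, on a log axis, with 1 point per library and a grey line joining the 3 libraries of a gene. The drawn gene with the highest mean CPM is named in each list, and some markers are not drawn. The gene with the highest mean CPM drawn for the kidney developmental factors is SALL1 (57.0 CPM), while no adrenal cortex gene passes the dotted line at 1 CPM.

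Nearly all listed cell cycle genes reached 1 CPM. Of 27 cyclins, cyclin-dependent kinases, their inhibitors and proliferation genes, 26 (96.3%) did so in every library, against 65.8% of all named protein-coding genes. The germline cyclin CCNA1 (0.379 CPM) was the exception. The D-type cyclins, which carry growth signals to CDK4 and CDK6, were uneven: per kilobase CCND2 was at 58.8 CPM and CCND1 at 1.56 CPM. CCND2 gave 405, 354 and 385 CPM in replicates 1 to 3, and CCND1 gave 5.49, 6.72 and 7.97 CPM. CDKN2A, a tumour suppressor gene whose pathway large T antigen is known to bypass, was at 128, 172 and 193 CPM. Large T antigen itself was not analysed here.

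Genome maintenance genes mostly had reads. All 10 homologous recombination genes and all 10 telomere genes reached 1 CPM, against 65.8% of all named protein-coding genes. TERT, the catalytic subunit of telomerase, was at 17.1 ± 1.27 CPM. In mismatch repair, MSH6, part of the complex that recognises the mismatch, was at 219, 208 and 195 CPM, highest in replicate 1. EXO1, the exonuclease of the pathway, was at 257 ± 36.9 CPM. MGMT, which removes alkyl groups from guanine in a single direct step, had 0 counts in all 3 libraries, which allows up to 0.0418 CPM, against 10 of 11 genes of base excision and direct reversal at 1 CPM or more (PARP1 at 718 ± 47.7 CPM, UNG at 124 ± 11.4 CPM).

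Of 24 genes that sense foreign nucleic acid 6 (25.0%) reached 1 CPM, against 65.8% of protein-coding genes, and 6 had 0 counts. EIF2AK2, the kinase PKR that halts translation on double-stranded RNA, was at 185, 168 and 156 CPM, and MAVS, the mitochondrial adaptor of the RNA sensors, at 132, 127 and 124 CPM. RIGI was at 5.58 ± 0.663 CPM and IFIH1 (MDA5) at 0.483 ± 0.156 CPM. CGAS, the cytosolic DNA sensor, gave 0.281, 0.270 and 0.490 CPM, and STING1, which acts after it, gave 1.31, 0.811 and 1.27 CPM, so that STING1 passed 1 CPM in replicates 1 and 3 only. TLR2, TLR4, TLR7, AIM2, ZBP1 and OAS2 had 0 counts. Of 23 genes of interferon and cytokine signalling 16 (69.6%) reached 1 CPM, near the share of protein-coding genes, with TYK2 at 133 ± 5.28, JAK1 at 105 ± 9.16 and STAT2 at 76.2 ± 0.979 CPM, and the cytokines IFNB1, IL6 and TNF at 0 counts.

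Receptors depended on class. Of 72 G protein-coupled receptors commonly studied 26 (36.1%) reached 1 CPM and 12 had 0 counts. The thrombin receptor F2R was at 40.1 ± 1.72 CPM, LPAR3, a receptor for lysophosphatidic acid, at 30.1, 30.4 and 32.8 CPM, ADCYAP1R1, the receptor for PACAP, at 27.4 ± 3.37 CPM and ADRA2C, an alpha-2 adrenergic receptor, at 18.4 ± 1.70 CPM. The beta-adrenergic receptor ADRB1 stayed under 1 CPM in every library, at 0.839 CPM on average. Downstream, 24 of 29 G proteins, cyclases, receptor kinases and arrestins (82.8%) reached 1 CPM, against 65.8% of all named protein-coding genes. They were led in reads by GNAS, the stimulatory alpha subunit, at 574, 599.5 and 637 CPM.

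Receptor tyrosine kinases reached 1 CPM in 33 of 43 cases (76.7%). The insulin-like growth factor receptor IGF1R gave 294, 252 and 244 CPM and FGFR1 gave 117, 117 and 121 CPM. ERBB2 and EGFR were at 76.3 ± 1.66 and 45.4 ± 5.21 CPM, and ALK had 0 counts. Of 47 nuclear receptors 33 (70.2%) did, NR2F2 (COUP-TFII) at 119 ± 5.81 CPM and the glucocorticoid receptor NR3C1 at 52.0 ± 4.97 CPM. The oestrogen receptor ESR1 had 1 count, in replicate 3, and the progesterone receptor PGR was at 0.127 CPM. Both shares lay above the 65.8% of all named protein-coding genes, and that of the G protein-coupled receptors lay below it, as a description with no test.

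Of 70 voltage-gated, mechanosensitive and other channels 46 (65.7%) reached 1 CPM, close to the 65.8% of protein-coding genes. PIEZO1, a mechanically gated cation channel, was at 225, 227 and 228 CPM, nearly the same in every library, and its relative PIEZO2 had 0 counts. The T-type calcium channel CACNA1H was at 88.8 ± 1.52 CPM, the proton-gated ASIC1 at 79.4 ± 4.05 CPM and the store sensor STIM1 at 80.3 ± 4.16 CPM. Among the potassium channels KCNC4 and KCNH2 were at 32.8 and 7.21 CPM.

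Of 21 virus receptors 17 (81.0%) reached 1 CPM, against 65.8% of protein-coding genes. SLC7A1, the receptor of ecotropic murine retroviruses in its murine form, gave 731, 597 and 668 CPM. KIAA0319L, the receptor of adeno-associated virus, was at 154 ± 3.90 CPM, and CXADR, the coxsackievirus and adenovirus receptor, at 54.9 ± 3.57 CPM. CD4 was at 0.0272 CPM. All 13 small RNA pathway genes reached 1 CPM, DICER1 at 244 ± 39.8 CPM and AGO2 at 119 ± 11.6 CPM.

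Over all 50 lists apart from the olfactory receptors, 654 of 665 genes were matched, 402 reached 1 CPM in every library and 82 had 0 counts. Overlap with another gene limits some zeros and low values. Protein-coding genes with over 50% of their exonic bases shared on the same strand reached 1 CPM in 131 of 402 cases (32.6%), against 66.5% of the other 18509 (75.6% with some overlap of at most 50%, 65.1% with none), and whether their reads were lost in counting was not tested.

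For 22 families of paralogs the share of the leading member was taken per kilobase. In 8 families 1 member held over 90%. CKB, the brain-type creatine kinase, held 99.9% among the 3 creatine kinase genes listed (CKB, CKM and CKMT2). CKM, the muscle type, was at 0.312 CPM. EEF1A1 held 98.0% against EEF1A2, at 1452 and 29.8 CPM per kilobase. ALDOA among the aldolases held 97.2% and ENO1 among the enolases 94.1%. SLC25A5 held 98.2% of the adenine nucleotide translocases, but SLC25A6 lies in the pseudoautosomal region, where 43 of the 47 genes on X with a copy on Y had 0 counts, so its 0 is uncertain.

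Other families were shared. LDHA and LDHB, the subunits of lactate dehydrogenase, were at 401 ± 18.6 and 224 ± 26.1 CPM per kilobase, LDHA ahead in every library with 62.1% to 65.6%. HK1 held 62.3% ± 2.44 of the hexokinases and HK2 37.5% ± 2.49, but with the median transcript length HK1 held 89.0%. The nuclear lamins were led by LMNB2 (52.4%) and LMNB1 (36.8%), with LMNA, which marks stiff and differentiated tissue, at 10.9%. MYH9 and MYH10, the main nonmuscle myosins, held 47.0% ± 1.85 and 42.5% ± 1.59, a gap that was narrow in replicates 1 and 2. PFKM, PFKL and PFKP held 43.5%, 31.8% and 24.7% of the phosphofructokinases. DNMT1 held 80.2% ± 0.283 of the DNA methyltransferases, with DNMT3B at 15.4% and DNMT3L at 0 counts.

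H1-2 led the linker histones at 56.1% ± 2.64, ahead of H1-4 at 27.1%, and H1-5 had 0 counts. TMSB10 held 92.2% of the beta thymosins and TMSB4X 2.76%, but TMSB4X, the actins and EEF1A1 have near-identical processed copies that can take reads. The leader depends on the length used for some of these. With the median transcript length ACTB in place of ACTG1, TET3 in place of TET1 and HSP90AA1 in place of HSP90AB1 led their families, and with no correction for length PFKL led in place of PFKM.

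**Figure D3:**
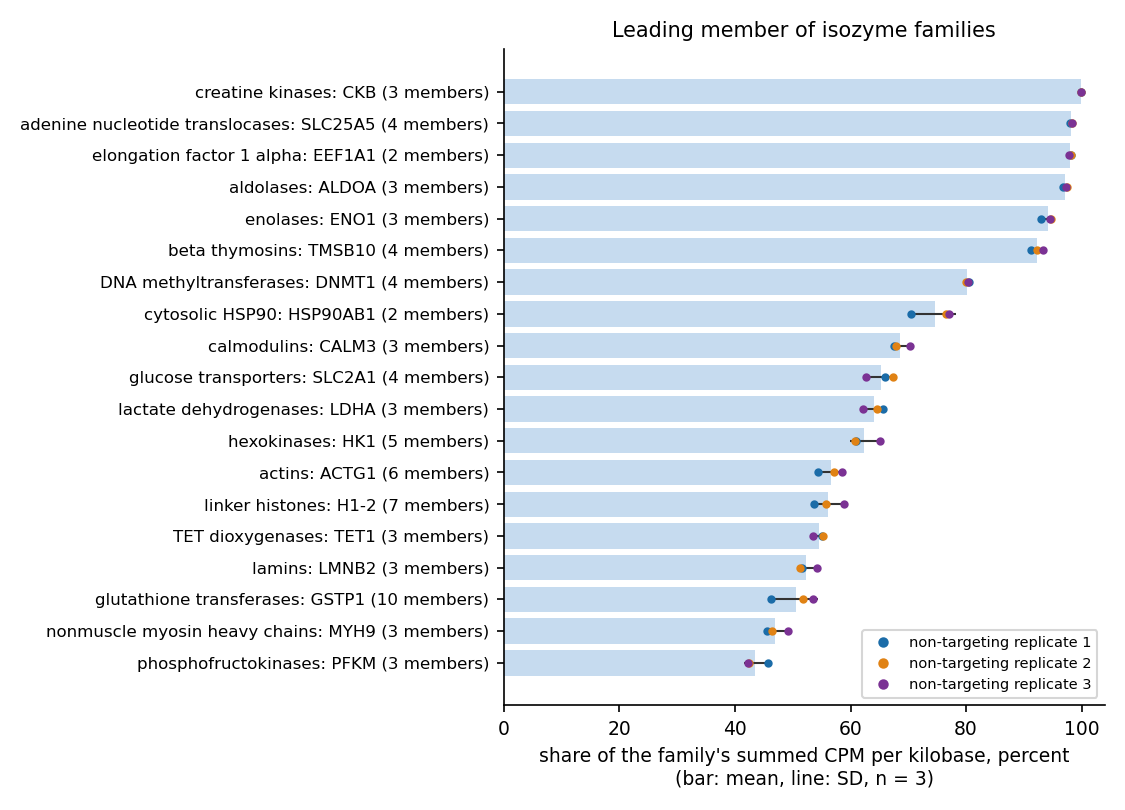
Share of the leading member in the summed CPM per kilobase of its family, as mean (bar), SD (line, n = 3) and value in each of the 3 non-targeting libraries (points). The list of cytochrome c oxidase isoforms, which mixes several subunits, and some other families are not drawn. CKB holds 99.9% of its family as listed (CKB, CKM and CKMT2) and PFKM 43.5% of its own.

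Most genes varied little between replicates, but beyond counting error. At 30 to 100 CPM the median coefficient of variation (SD over mean) was 8.72%, against 2.80% from counting alone, and it was 8.13% at 100 to 300 CPM and 8.63% at 300 to 1000 CPM. The 42 genes of at least 1000 CPM had a median of 14.7%. Of 12250 genes with a mean of at least 5 CPM, 1168 (9.53%) differed at least 1.5-fold between the highest and the lowest library. This count rests on replicate 1: without it 90 remained past 1.5-fold, without replicate 3 it was 326 and without replicate 2 it was 1034.

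The 10 largest spreads were taken among named genes with a mean of at least 50 CPM, and genes without a symbol were not ranked. Several of these 10 belong to RNAs that are known to carry no poly(A) tail. SCARNA10, a guide RNA of Cajal bodies, gave 47.4, 173 and 212 CPM in replicates 1 to 3. TERC, the RNA template of telomerase, gave 23.5, 67.0 and 73.8 CPM, and the histone mRNA H4C3 gave 59.0, 130.4 and 165 CPM. 7SK, RN7SKP80, RN7SL4P, H2AC13 and RPL35 were likewise lowest in replicate 1. Of these 10 named genes only MT-ATP6 (136, 101 and 62.5 CPM) was highest there. HSPA8, the constitutive HSP70 chaperone, gave 353, 790 and 622 CPM, with the peak in replicate 2. SCARNA10 and TERC share 75.2% and 81.0% of their bases with another gene on the same strand. Small RNAs did not all run this way. Outside the 10 largest spreads, RNU6-1 gave 339, 230 and 192 CPM and MIR3648-2 gave 430, 322 and 297 CPM, both highest in replicate 1.

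Small non-coding RNAs together took 0.729%, 1.37% and 1.58% of the counts in replicates 1 to 3, and long non-coding RNAs took 3.93%, 3.33% and 2.95%. The 7SK row alone gave 5159, 11458 and 13654 CPM, most of the small non-coding share in every library. XIST, the largest long non-coding row, gave 19653, 15883 and 13609 CPM. The shares of these types without such rows were not taken. In base composition and length the groups also differed. The 614 genes lowest in replicate 3 and highest in replicate 1 had a median GC content of 39.2% and a median transcript length of 4775 bases, and the 348 genes with the opposite order had 57.5% and 1391 bases, against 48.0% and 3743 bases for all genes of this level. BRCA2, a long gene, was among those that lay highest in replicate 1, at 130.1, 91.9 and 61.0 CPM. The part of poly(A) enrichment, GC content or length in this spread was not tested.

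At the other end, SF3B3, a subunit of the U2 small nuclear ribonucleoprotein, gave 642, 645 and 644 CPM, and GGA2, an adaptor of Golgi sorting, gave 206 CPM in each. MED22, PDCD11, RRP1, ASPSCR1, RBBP4, SMARCC1 and DCTN5 were as tight. All of these varied less than counting alone gives, so their order carries no information.

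Promoter sequence was set beside these levels. RefSeq windows (GRCh38.p14) from 250 bases before to 50 after the gene start were found for 14972 of 18901 protein-coding genes. The upstream 250 bases of 4 promoters are shown to contrast genes with most reads and genes without reads, 5′ to 3′ on the strand of the gene. Capitals mark the motifs searched, on either strand. These are the TATA box as TATAAA, the GC box, bound by SP factors, as GGGCGG, then CCGGAAGT (ETS site), GCGCATGCG (NRF1 site), CTCGCGAGA (palindrome of the ZBTB33 type), AAGATGGCG (YY1 site), the CCAAT box, bound by NF-Y, by the letters of its name, and TGACGTCA (cAMP response element).
EEF1A1, chr6:73521033-73521282, minus strand, 6450 CPM: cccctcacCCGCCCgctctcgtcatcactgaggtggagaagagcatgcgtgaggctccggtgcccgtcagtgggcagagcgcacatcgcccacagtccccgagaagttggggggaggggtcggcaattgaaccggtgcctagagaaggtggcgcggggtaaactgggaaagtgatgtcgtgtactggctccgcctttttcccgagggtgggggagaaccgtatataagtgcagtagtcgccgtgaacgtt
EEF2, chr19:3985464-3985713, minus strand, 4829 CPM: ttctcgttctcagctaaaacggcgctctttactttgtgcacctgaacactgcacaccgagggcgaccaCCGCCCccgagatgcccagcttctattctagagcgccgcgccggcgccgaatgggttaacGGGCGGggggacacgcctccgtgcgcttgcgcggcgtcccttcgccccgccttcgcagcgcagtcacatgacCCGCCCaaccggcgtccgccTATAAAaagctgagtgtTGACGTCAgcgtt
MGMT, chr10:129466991-129467240, plus strand, 0 counts: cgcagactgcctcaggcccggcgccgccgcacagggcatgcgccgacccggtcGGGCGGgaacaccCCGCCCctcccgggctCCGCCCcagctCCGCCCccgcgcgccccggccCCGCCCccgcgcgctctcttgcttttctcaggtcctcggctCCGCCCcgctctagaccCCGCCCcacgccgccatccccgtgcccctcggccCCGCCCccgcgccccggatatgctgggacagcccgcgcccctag
UMOD, chr16:20352716-20352965, minus strand, 0 counts: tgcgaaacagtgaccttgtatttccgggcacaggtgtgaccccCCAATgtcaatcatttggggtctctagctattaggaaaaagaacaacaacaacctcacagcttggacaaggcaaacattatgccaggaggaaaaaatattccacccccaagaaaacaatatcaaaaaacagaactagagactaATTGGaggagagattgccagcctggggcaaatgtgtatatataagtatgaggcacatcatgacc

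Over the 250 bases shown, EEF2 held a TATA box, 3 GC boxes, a cAMP response element and 31 CG dinucleotides. EEF1A1 held 1 GC box and 20 CG dinucleotides. UMOD, a tissue-specific gene, had 2 CCAAT boxes and 2 CG dinucleotides. MGMT was unlike UMOD in that its promoter, that of a gene with 0 counts, held 8 GC boxes and 36 CG dinucleotides in the same span, more than either elongation factor gene. Over the full 300-base window MGMT held 45, EEF2 41, EEF1A1 24 and UMOD 2. These promoters are examples, and not every gene with many reads was CG-rich. VIM, not shown and at 366 CPM on average, held 1 GC box and 8 CG dinucleotides upstream, and 10 in the full window. DNA methylation was not measured here.

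Across the genome, promoters of protein-coding genes at 1 CPM or more held more CG dinucleotides and GC boxes than all windows together. Those of genes with fewer reads held fewer. All windows are a wider set than the protein-coding genes in the classes. The median number of CG dinucleotides per 300-base window was 4 for 2152 genes with 0 counts, 9 for genes above 0 and under 1 CPM, 22 at 1 to 10 CPM, 27 at 10 to 100 CPM and 28 for 2089 genes at 100 CPM or more, against 14 over all 35116 windows. A GC box was found in 24.8% of the promoters at 0 counts (95% Wilson interval 23.0% to 26.6%) and in 41.7% above 0 and under 1 CPM. It was in 74.7% of those at 100 CPM or more (72.8% to 76.5%). Over all windows the GC box share was 45.0%, and over the 14972 protein-coding genes in the classes it was 59.8%. Of the 2152 genes with 0 counts 315 (14.6%) nevertheless had 20 or more CG dinucleotides, as MGMT does.

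Motifs known from housekeeping promoters were most frequent in the highest class. The ETS site was found in 0.883%, 1.27%, 3.80%, 9.71% and 10.6% of the promoters from 0 counts to 100 CPM or more. Its share was 4.14% over all windows and 6.37% over all protein-coding genes in the classes, and both shares follow in brackets below, in this order. The YY1 site was in 0.279% and 6.56% of the lowest and highest class (1.75%, 2.84%) and the NRF1 site in 0.558% and 4.60% (1.92%, 2.79%). The ZBTB33-type palindrome was in 0.372% and 2.44% (0.686%, 1.07%) and the cAMP response element in 0.836% and 3.83% (1.85%, 2.64%). The CCAAT box lay between 34.0% and 39.3% (34.6%, 36.6%). With classes of CPM per kilobase the highest class held the ETS site in 8.27%, the NRF1 site in 3.01% and the cAMP response element in 3.76% of promoters, below the 11.8%, 4.89% and 4.22% of the class under it. The GC box was likewise in 71.4% against 74.3%. The GC box and these 5 motifs hold CG in their own letters, so their shares and the CG counts are not independent.

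The TATA box ran the other way, from 23.9% of promoters at 0 counts to 4.49% at 10 to 100 CPM and 5.36% at 100 CPM or more. Its share was 11.5% over all windows and 9.38% over all protein-coding genes in the classes. When classes were formed by CPM per kilobase, the highest class was much smaller, with 266 genes, and its TATA box share was 14.7% (10.9% to 19.4%), 39 promoters in all. Of these, 12 belong to histone genes, which are short, and 13 histone genes are in that class. A match to these letters is a description and not a bound site, variants of a motif were not counted, and overlapping matches of different motifs were each counted.

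**Figure D4:**
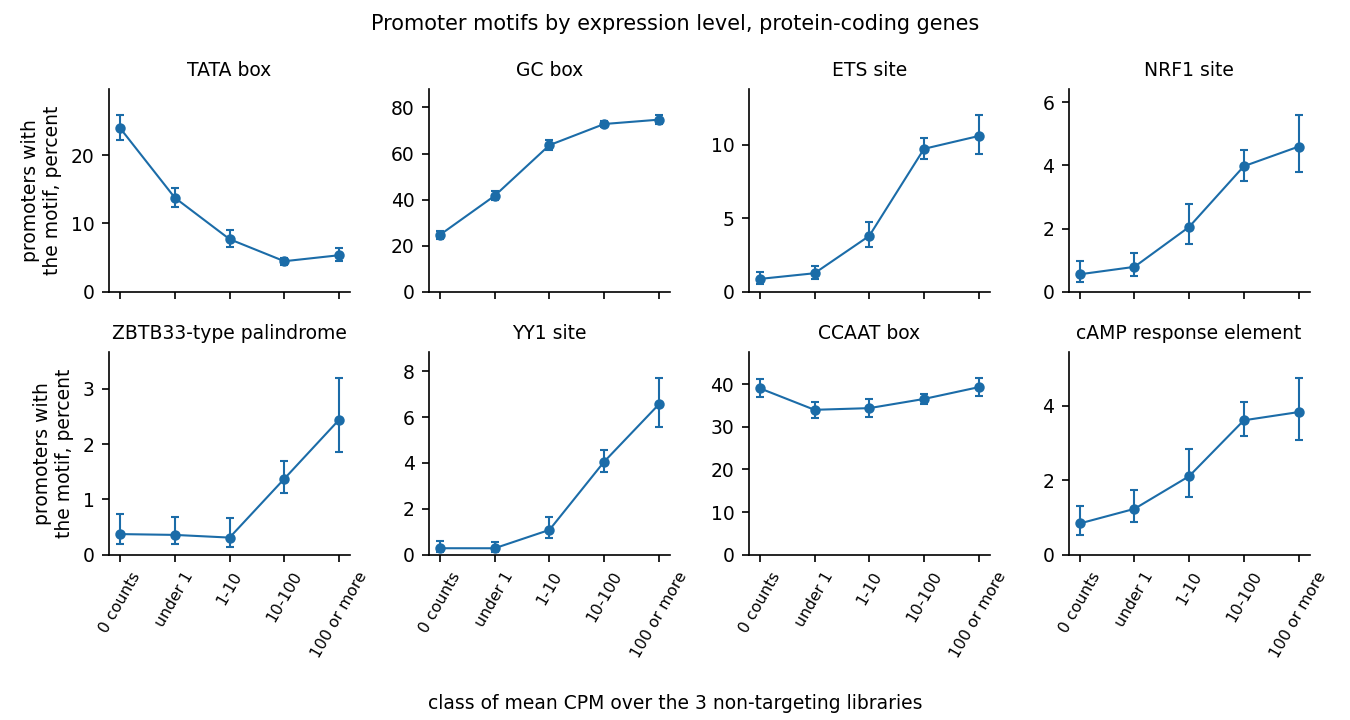
Share of promoter windows that hold each of 8 motifs on either strand, by class of mean CPM over the 3 non-targeting libraries, with 95% Wilson intervals for counting error only. Each panel has its own vertical axis from 0. The TATA box goes from 23.9% to 5.36%, the GC box from 24.8% to 74.7%, and the CCAAT box stays between 34.0% and 39.3%.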

How the data were processed

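The authors deposited raw counts per gene in a single table, and the columns of the 3 non-targeting libraries were used, as whole numbers without normalization. Reads were trimmed with cutadapt 4.4 and aligned with STAR 2.7.4a, and hg19 (GRCh37) is the build named, per the submitters' processing notes. For counting, tool, annotation and strand were not given in the sources used here. Antisense and overlapping genes are therefore uncertain. Genes were matched to a reference list of gene names by Ensembl identifier without version, and 51996 of 57820 matched. Gene type, transcript length, GC content and same-strand overlap come from GENCODE 29, joined by the same identifier. CPM, SD and coefficients of variation were computed in Python 3.11.15 (pandas 2.3.3, numpy 2.4.6), checked on simulated data, and edgeR 4.0.16 gave the TMM factors of an alternative. No test was made, since a single group is described. The labels call the libraries biological replicates. The genes named were taken from those with a symbol. They were the 30 with the highest mean CPM, the 10 highest per kilobase, the top members and zeros of each list, isozymes, and the 10 widest and 10 tightest at 50 CPM or more. Some of these genes are not reported here. Other list members are named for their role after their values were seen. The libraries and gene lists were chosen with earlier results of these data known.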

Additional observations from a re-analysis of the deposited data

Results flagged for a closer look

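Genes without a symbol were left out of the lists above, yet held 2.96% of the counts on average (2.56%, 3.00% and 3.31% in replicates 1 to 3), far above the limit that a count of 0 allows. There were 18282 of them, 1368 at 1 CPM or more in every library. ENSG00000258486.2, not matched to the reference list of gene names, gave 1950, 4348 and 6225 CPM. ENSG00000259001.2, matched without a symbol, gave 1724, 4254 and 4541 CPM, and both were lowest in replicate 1. Not all ran that way: among the 10 such genes with the most reads, 3 were highest in replicate 1, the widest of them at 873, 375 and 423 CPM.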

How the results depend on the processing

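Of 521 alternative values, 462 stayed within 1.5 times (counts) or 1 SD or interval (shares) of the value reported. The number of genes at 1 CPM in every library (15630) ranged from 13859 to 17549, the list members (402) from 401 to 432 and the share of the 100 most abundant genes (15.5%) from 14.9% to 16.2%. The count of genes at least 1.5-fold apart between libraries (1168) depended on the filter: it was 3134 at a mean of at least 1 CPM and 10353 for genes with a count in every library, and 1069 with TMM scaling. Leaving out 1 library gave 90 to 1034. The median share of the leading isozyme (66.9%) was 74.9% with the median transcript length. The GC box share at 100 CPM or more (74.7%) was 71.4% with classes per kilobase and 52.8% in the plus orientation alone, which searches 1 strand. Of the single isozyme families 34 of 110 values moved, all of them with a change of the length used, and of the single motifs 13 of 75. Leaving out 1 of 3 libraries cannot shift the mean share of a family, or of the 100 most abundant genes, by 1 SD. Those values could not move, so their place among the 462 says nothing on robustness. No paired analysis was possible because a single group was described, with no test. At these depths, genes under about 0.0418 CPM cannot be told from absent ones.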

Other observations

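Of 690 pairs of protein-coding genes that start within 1000 bases of each other and are read in opposite directions, both reached 1 CPM in 540, 1 of them did in 123 and neither in 27, and both had 0 counts in 8. These 8 include the tissue-restricted pairs PLCZ1 and CAPZA3, RASL12 and KBTBD13, GSG1L2 and GLP2R, MORC1 and C3orf85, and the olfactory receptor genes OR11A1 and OR2H1. The pairs were looked up after values were seen.

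By chromosome, the share of protein-coding genes at 1 CPM or more ran from 54.0% on chromosome 21 to 72.2% on chromosome 22, and was 54.8% on X. Among the genes past that level the median was lowest on chromosome 19, at 25.2 CPM, and highest on chromosome 21, at 59.9 CPM.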
